A study of Homo sapiens with 6 samples.

Results

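The regulators of the ATF4 circuit described here are 10 genes: ATF4, ATF5, ATF3, JDP2, CEBPB, CEBPG, DDIT3, NUPR1, TRIB3 and PPP1R15A. They were taken by gene symbol from the deposited expression table, where each has 1 row among 20345 genes, and all 10 passed the filter on low expression. Total RNA came from HEK 293FT, an established line of human embryonic kidney origin with SV40 large T antigen. One group, called CTRB1 cells here, is titled HEK 293FTGFP-CTRB1 and has 3 libraries. The other, called GFP cells for green fluorescent protein, is titled HEK 293FTGFP with the mark Vec and also has 3 libraries. The titles put GFP in both groups. The promoter that drives CTRB1, the gene of the pancreatic protease precursor chymotrypsinogen B1, the number of clones and the time of culture are not given in the sources used here. No stress-inducing agent is named in the labels.

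ATF4 is a basic leucine zipper (bZIP) transcription factor whose protein is made when the initiation factor eIF2alpha is phosphorylated, because upstream open reading frames in its messenger RNA then let ribosomes reach the main reading frame. It pairs with C/EBP proteins on composite C/EBP-ATF elements, switches on genes of amino acid supply, and also switches on further regulators, among them DDIT3 (CHOP), ATF3, TRIB3 and PPP1R15A (GADD34), some of which act back on the pathway. The values below are levels of RNA, so neither ATF4 protein nor eIF2alpha phosphorylation was measured.

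CTRB1 itself had 22749, 22161 and 19345 counts in CTRB1 libraries and 1, 0 and 5 in GFP libraries. Total counts were 27514767 to 32522018 in CTRB1 libraries and 52571457 to 159616285 in GFP libraries, so each GFP library was the deeper. Levels are therefore given as CPM, counts per unit of scaled library size as edgeR's cpm function gives them. Of 5 genes that HEK293 lines express and that the table holds, 4 passed the filter. The summed level of all 5 was 54.3 to 62.3 TPM (the deposited length-scaled level) in CTRB1 libraries and 56.1 to 58.7 in GFP libraries. The sum covers changes in both directions, since PAX2 (log2 fold change 0.39; edgeR adjusted p = 0.0101) and NEFM (0.12; 0.0257) were called higher, INA was called lower (-0.30; 0.0105) and SALL1 was not called. With all libraries thinned to the smallest, 0 of the 4 were called higher, and without GFP replicate 2, 0 were called lower. Of 10 markers of fibroblasts, blood, endothelium and keratinocytes 1 passed, the collagen gene COL1A1, which was called higher (log2 fold change 0.23, edgeR adjusted p = 0.0331). That call was lost without CTRB1 replicate 2 or 3, without GFP replicate 1, 2 or 3, and in limma fits of log2(FPKM + 1) or log2(FPKM + 0.1). The sum of the 10 was 13.5 to 15.8 TPM in CTRB1 libraries and 13.1 to 14.3 in GFP libraries. CD3E, HBB and KRT14 were at 0 in all 6 libraries. The part of these marker differences in the values below was not tested. Since no label ties the libraries to separate cultures, p-values here describe the spread among these 6 libraries, and that spread may be technical.

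Of the 10 regulators, 9 were higher and 1, ATF5, was lower in CTRB1 cells at an adjusted p below 0.05 (edgeR's quasi-likelihood test with Benjamini-Hochberg adjustment over all 11961 genes tested). The same test called 18.6% of all genes tested higher and 18.9% lower. The median log2 fold change was 0.51 over the 10 regulators and 0.00 over all genes tested. The regulators were chosen with earlier results of these data known, so these values are not independent evidence of their direction. In CPM, the 3 CTRB1 libraries lay wholly above or wholly below the 3 GFP libraries for all 10, as they did for 50% of all genes tested. On log2 CPM, the exact permutation test (two-sided) of the difference in means gave p = 0.1 for each regulator, the smallest value that 3 against 3 libraries allow. Of the 2221 higher and 2258 lower calls, 49.6% were higher; in a limma fit of log2(FPKM + 1) that share was 39.2%, and there 7 of the regulators were called higher and 1 lower.

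**Figure D1:**
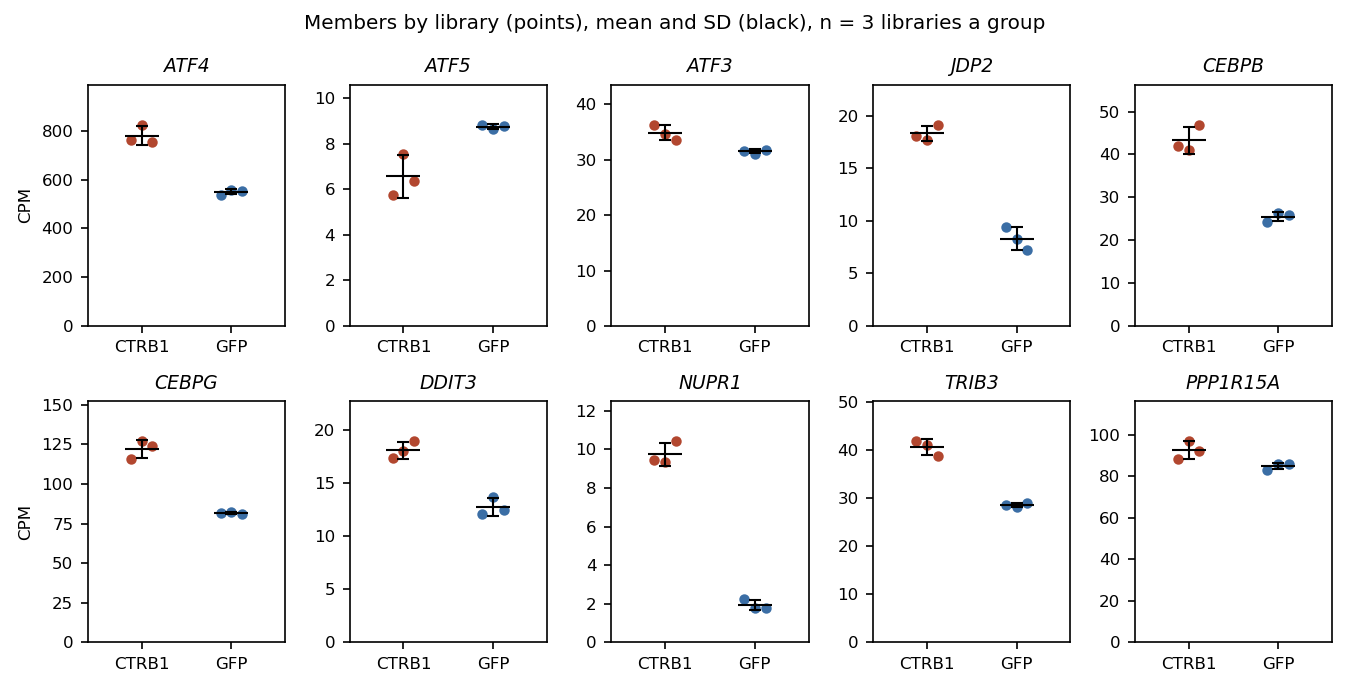
CPM of the 10 regulators in each library (points; CTRB1 cells left, GFP cells right) with the mean and SD of 3 libraries in black; each vertical axis starts at 0. For every gene the points of the 2 groups are apart, with NUPR1 and JDP2 at the wide end and ATF3 and PPP1R15A at the narrow end.

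RefSeq promoter windows (GRCh38.p14, 250 bases before to 50 after each annotated start) were searched for 2 motifs that ATF4-circuit proteins are known to bind. RefSeq windows were at hand for 9 of the 10 genes, 20 windows in all, and none for NUPR1. The core of the C/EBP-ATF response element, TGATGNAA on either strand, occurred in 3 of the 20 windows, against 3.62% of all 35116 windows. By gene it occurred in 3 of the 9, against 4.46% of 27305. The 9 regulators had more windows per gene than all genes had, so the shares by gene are not like for like. The cyclic AMP response element TGACGTCA, which reads the same on both strands, occurred in 1 window, against 1.85% of all windows, and no window of a regulator held both motifs. The 4 matches are shown as 30 bases around each, 5′ to 3′ on the plus strand, with the motif in capitals.

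CEBPG: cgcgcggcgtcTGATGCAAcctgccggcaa
JDP2: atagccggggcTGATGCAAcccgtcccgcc
ATF3: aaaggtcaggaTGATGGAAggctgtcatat
PPP1R15A: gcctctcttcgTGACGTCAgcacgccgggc

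In CEBPG (chr19:33374060-33374089) the element begins 42 bases before the downstream one of the gene's 2 annotated starts, and in JDP2 (chr14:75427995-75428024) 16 bases before the middle one of 3. Both stretches lie inside the gene and outside its exons in GENCODE v29. In ATF3 (chr1:212565205-212565234) the element begins 191 bases before the upstream start, and in PPP1R15A (chr19:48872352-48872381) the cyclic AMP element begins 58 bases before the start; both stretches lie upstream of the gene in GENCODE v29. A match is a string of letters and not evidence of binding, and the absence of a match concerns these windows only.

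ATF4 was by far the most abundant of the regulators and rose by 1.42-fold. ATF4 (ENSG00000128272; chromosome 22, positions 39915700 to 39918691 in the table's coordinates, which carry no build name) had 763, 826 and 755 CPM in CTRB1 libraries, against 539, 559 and 554 CPM in GFP libraries. The lowest CTRB1 library stood well above the highest GFP library. The log2 fold change was 0.50 ± 0.0324 (SE; edgeR adjusted p = 1.57e-06), rank 216 from the highest among 11961 genes. ATF4 has 4 pseudogenes in GENCODE v29, and 4.53 to 6.59% of the 100-base windows of its annotated transcripts occur unchanged in a pseudogene. Reads from such windows may have been assigned in more than 1 way. Windows that match with differences were not counted, and the part of the reads affected was not tested.

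ATF5, the closest relative of ATF4 and likewise under translational control by upstream reading frames, was the one regulator that fell. It had 5.74, 7.56 and 6.38 CPM in CTRB1 libraries and 8.83, 8.63 and 8.78 CPM in GFP libraries. The GFP libraries were tightly grouped and the CTRB1 libraries were spread, with replicate 2 nearest to the GFP level. ATF5 was 1.33-fold lower in CTRB1 cells (log2 fold change -0.41 ± 0.107, SE; edgeR adjusted p = 0.0115), with -0.32 without CTRB1 replicate 1 and -0.53 without CTRB1 replicate 2. The limma fit of log2(FPKM + 1), a scale that understates changes of low genes, gave -0.27 (limma adjusted p = 0.0206). With log2(FPKM + 0.1) the limma value was -0.33 (limma adjusted p = 0.0214). The ATF5 count per unit of FPKM, relative to the library median, was 0.550 to 0.606 in CTRB1 libraries and 0.624 to 0.631 in GFP libraries. Its part in the smaller limma values was not tested. The edgeR value was the 172nd lowest of the 11961 fold changes. ATF5 (ENSG00000169136; chromosome 19, positions 50431959 to 50437192) shares 1062 of its 5234 bases with NUP62, a nuclear pore gene that averaged 174 ± 3.40 CPM in CTRB1 cells and 186 ± 0.798 CPM in GFP cells (SD, n = 3 each; log2 fold change -0.10). It also shares 838 bases with IL4I1, and all 5234 with CTC-326K19.6, which had 0 counts in every library. Whether counting used strand is not stated, and the part of these shared bases in the ATF5 value was not tested.

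The partners of ATF4 on composite elements, CEBPB and CEBPG, both rose. CEBPG encodes a short C/EBP protein without an activation domain of its own that pairs with ATF4. It had 116, 127 and 124 CPM in CTRB1 libraries, against 81.7, 82.1 and 81.2 CPM in GFP libraries. The GFP libraries lay close together, and every CTRB1 library stood well above them. CEBPG rose 1.495-fold (log2 fold change 0.58 ± 0.0337, SE; edgeR adjusted p = 7.3e-07).

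CEBPB, which encodes C/EBP beta, a C/EBP activator made as long and short forms from 1 messenger RNA, had 42.1, 41.1 and 46.9 CPM in CTRB1 libraries, against 24.3, 26.3 and 25.8 CPM in GFP libraries. It rose 1.70-fold (log2 fold change 0.77 ± 0.0582, SE; edgeR adjusted p = 5.37e-06), rank 58 from the highest. Of the other C/EBP genes, CEBPA averaged 22.5 ± 0.315 CPM in CTRB1 cells and 23.0 ± 0.738 CPM in GFP cells (SD, n = 3 each) and was not called (log2 fold change -0.04; edgeR adjusted p = 0.594). CEBPD and CEBPE did not pass the filter on low expression.

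DDIT3 encodes CHOP, a C/EBP relative that is induced downstream of ATF4 and is linked to cell death under lasting stress. Its levels were 17.4, 18.0 and 19.0 CPM in CTRB1 libraries and 12.2, 13.7 and 12.5 CPM in GFP libraries. The groups were separate, and DDIT3 rose 1.42-fold (log2 fold change 0.50 ± 0.0767, SE; edgeR adjusted p = 0.000556). DDIT3 (ENSG00000175197; chromosome 12, positions 57910371 to 57914300) shares 982 of its 3930 bases with MARS1, the methionyl-tRNA synthetase gene. MARS1 averaged 348 ± 7.74 CPM in CTRB1 cells and 250 ± 6.89 CPM in GFP cells (SD, n = 3 each), and also rose (log2 fold change 0.48; edgeR adjusted p = 7.27e-07); its part in the DDIT3 value was not tested.

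NUPR1 and JDP2 moved farthest. NUPR1, a small stress-induced nuclear protein that binds chromatin, was at 9.44, 9.36 and 10.4 CPM in CTRB1 libraries and at 2.26, 1.78 and 1.81 CPM in GFP libraries. Every CTRB1 library stood far above every GFP library. The rise was 5.04-fold (log2 fold change 2.33 ± 0.124, SE; edgeR adjusted p = 4e-07), rank 4 from the highest of 11961 genes. The raw counts behind it were 298, 303 and 286 in CTRB1 libraries and 118, 115 and 287 in the deeper GFP libraries.

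JDP2, a bZIP protein that pairs with JUN and ATF proteins and represses their targets, had 18.1, 17.7 and 19.1 CPM in CTRB1 libraries, against 9.41, 8.25 and 7.26 CPM in GFP libraries. It rose 2.21-fold (log2 fold change 1.15 ± 0.0994, SE; edgeR adjusted p = 1.37e-05), rank 24 from the highest. JDP2 was also the regulator whose deposited length-scaled values followed its counts least. Its deposited TPM was 18.7, 18.3 and 22.2 in CTRB1 libraries and 12.3, 4.64 and 6.96 in GFP libraries, and its count per unit of FPKM differed 2.36-fold between libraries, against 1.01 to 1.15-fold for the other 9 regulators. The groups stayed apart on both scales.

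ATF3, the nearest relative of JDP2 and a stress-inducible bZIP protein that often acts as a repressor, hardly moved. It had 36.3, 34.7 and 33.6 CPM in CTRB1 libraries, against 31.6, 31.1 and 31.8 CPM in GFP libraries. The gap between the lowest CTRB1 and the highest GFP library was narrow. The 1.11-fold rise (log2 fold change 0.15 ± 0.0458, SE; edgeR adjusted p = 0.0279) was lost without CTRB1 replicate 1 (edgeR adjusted p = 0.0678), GFP replicate 1 (0.106), GFP replicate 2 (0.1003) or GFP replicate 3 (0.0675), without the expression filter (0.057), and in the limma fit of log2(FPKM + 1), where the adjusted p was 0.122.

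The circuit's feedback genes differed. TRIB3, a pseudokinase that binds ATF4 and CHOP and restrains their activity, had 41.8, 41.1 and 38.7 CPM in CTRB1 libraries and 28.5, 28.1 and 28.9 CPM in GFP libraries, a rise of 1.42-fold (log2 fold change 0.51 ± 0.0459, SE; edgeR adjusted p = 1.82e-05). PPP1R15A, the stress-induced subunit that directs protein phosphatase 1 to eIF2alpha, had 88.5, 96.9 and 92.5 CPM in CTRB1 libraries, against 83.2, 85.9 and 85.9 CPM in GFP libraries. Its rise was 1.09-fold (log2 fold change 0.12 ± 0.0345, SE; edgeR adjusted p = 0.0165) and was lost without CTRB1 replicate 2 (edgeR adjusted p = 0.0572), without GFP replicate 1 (0.0617) and in the limma fit of log2(FPKM + 1), where the adjusted p was 0.0919. PPP1R15B, the subunit that serves unstressed cells, averaged 114 ± 4.20 CPM in CTRB1 cells and 112 ± 1.71 CPM in GFP cells (SD, n = 3 each) and was not called (log2 fold change 0.02; edgeR adjusted p = 0.677).

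**Figure D2:**
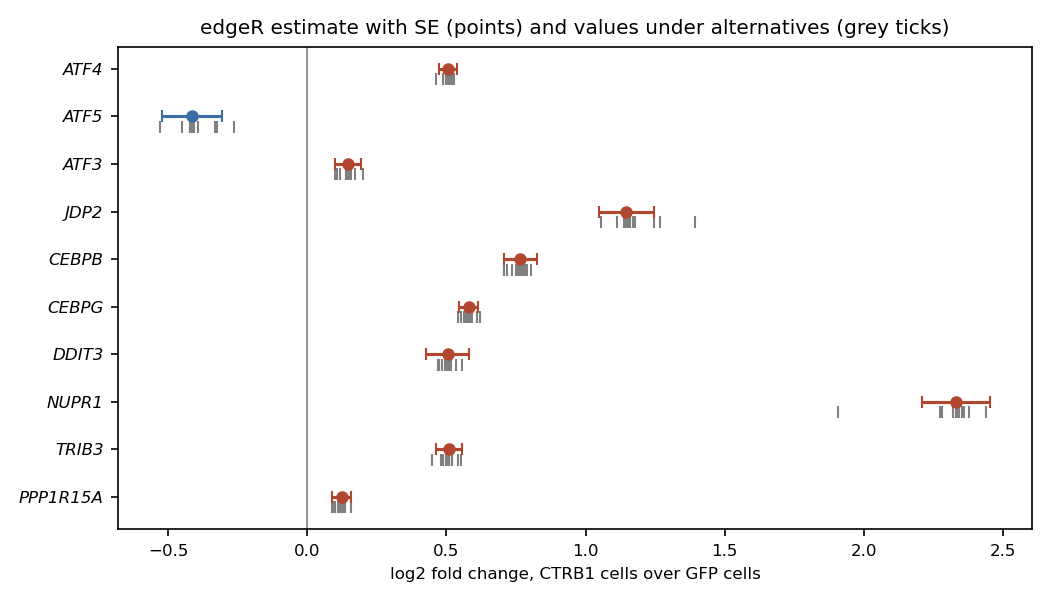
Log2 fold change of CTRB1 cells over GFP cells for each regulator (horizontal axis), as the edgeR estimate with its SE (points with bars; red higher, blue lower in CTRB1 cells) and the values under each alternative processing (grey ticks). ATF5 is the single gene left of 0, and ATF3 and PPP1R15A lie closest to 0.

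The authors' deposited table gives the same direction for each of the 10, with log2 fold changes from -0.416 for ATF5 to 2.336 for NUPR1 and adjusted p from 5.99e-60 for ATF4 to 0.045 for ATF3; the tool behind that comparison is not stated.

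To see which regulators changed by more or less than ATF4 itself, each was divided by ATF4 within its library. These percentages compare CPM, which is not per length, so they can be set against each other between libraries but not between genes. NUPR1 stood at 1.24, 1.13 and 1.38% of ATF4 in CTRB1 libraries and at 0.42, 0.32 and 0.33% in GFP libraries. JDP2 stood at 2.37, 2.15 and 2.54% in CTRB1 libraries and at 1.75, 1.48 and 1.31% in GFP libraries, and CEBPB at 5.52, 4.97 and 6.22% in CTRB1 libraries and at 4.50, 4.71 and 4.65% in GFP libraries. For these 3 of the 9 regulators all CTRB1 libraries lay above all GFP libraries, which was so for 0.56% of all genes tested.

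PPP1R15A stood at 11.6, 11.7 and 12.3% of ATF4 in CTRB1 libraries, against 15.4, 15.4 and 15.5% in GFP libraries. ATF3 stood at 4.76, 4.20 and 4.45% in CTRB1 libraries, against 5.86, 5.57 and 5.74% in GFP libraries. ATF5 stood at 0.752, 0.916 and 0.845% in CTRB1 libraries, against 1.64, 1.55 and 1.58% in GFP libraries. For these 3 all CTRB1 libraries lay below all GFP libraries, as they did for 92.2% of all genes tested, since ATF4 itself was higher.

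DDIT3, TRIB3 and CEBPG overlapped between the groups. DDIT3 averaged 2.33% of ATF4 in CTRB1 cells and 2.32% in GFP cells, TRIB3 averaged 5.19% in CTRB1 cells and 5.17% in GFP cells, and CEBPG averaged 15.6% in CTRB1 cells and 14.8% in GFP cells. By exact permutation of the 3 and 3 libraries (two-sided, log2 ratio), p was 1 for DDIT3 and TRIB3, 0.2 for CEBPG and 0.1, the smallest possible, for each of the 6 regulators whose groups were apart.

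**Figure D3:**
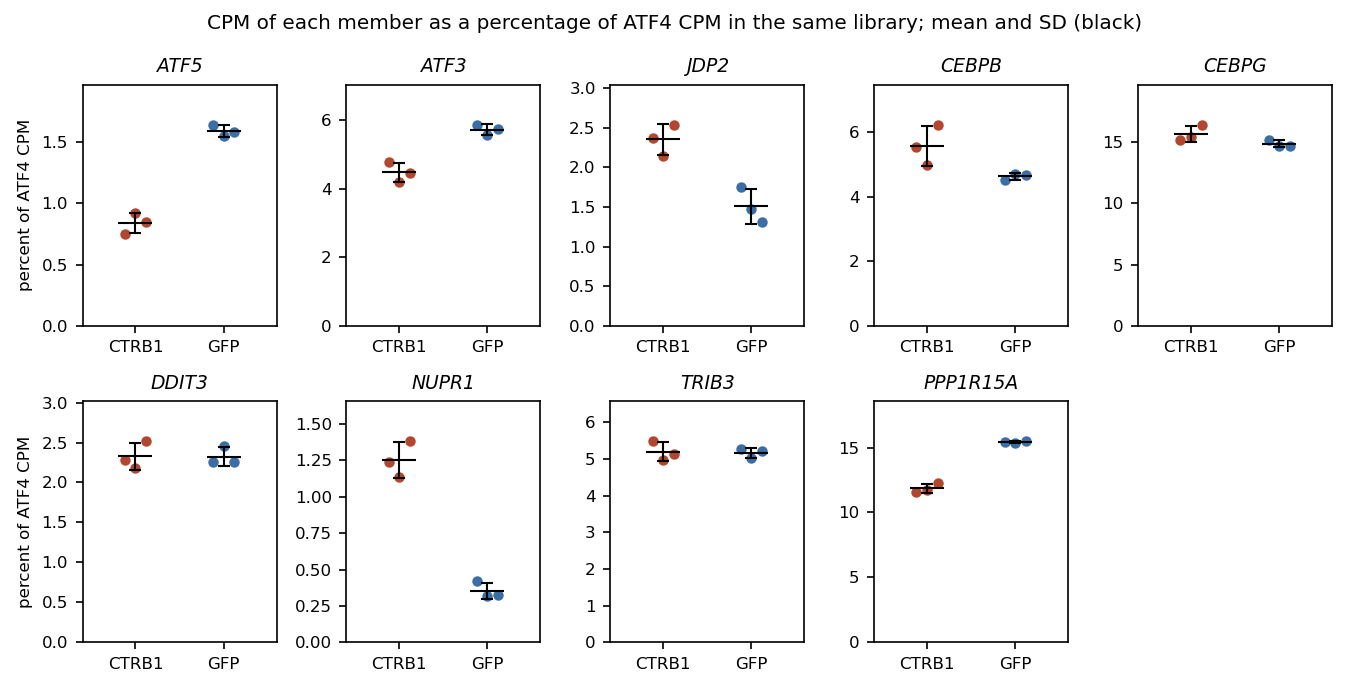
CPM of 9 regulators as a percentage of ATF4 CPM in the same library (points; CTRB1 cells left, GFP cells right), with the mean and SD of 3 libraries in black and each axis starting at 0. NUPR1, JDP2 and CEBPB are higher relative to ATF4 in CTRB1 cells, ATF5, ATF3 and PPP1R15A are lower, and DDIT3, TRIB3 and CEBPG overlap.

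Levels of different genes can be compared per length, in the deposited TPM. In CTRB1 cells ATF4 averaged 759 ± 35.4 TPM (SD, n = 3), and the next regulator was PPP1R15A at 73.6 ± 2.59 TPM. Below it followed CEBPG (55.4 ± 2.05 TPM), CEBPB (44.1 ± 3.21 TPM), DDIT3 (37.0 ± 1.45 TPM), ATF3 (33.4 ± 1.58 TPM), TRIB3 (30.5 ± 1.40 TPM), NUPR1 (21.7 ± 1.28 TPM), JDP2 (19.7 ± 2.11 TPM) and ATF5 (6.78 ± 0.661 TPM). In that order the libraries of neighbours overlapped for 1 pair, NUPR1 and JDP2.

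In GFP cells ATF4 averaged 537 ± 13.8 TPM and PPP1R15A 68.9 ± 1.35 TPM, again the leading pair (SD, n = 3). CEBPG (37.5 ± 0.395 TPM), ATF3 (31.1 ± 0.767 TPM), DDIT3 (26.2 ± 1.76 TPM), CEBPB (26.1 ± 1.16 TPM), TRIB3 (21.8 ± 0.419 TPM), ATF5 (8.58 ± 0.0974 TPM), JDP2 (7.97 ± 3.94 TPM) and NUPR1 (4.22 ± 0.786 TPM) followed. Neighbours overlapped for 3 pairs: DDIT3 with CEBPB, ATF5 with JDP2, and JDP2 with NUPR1. NUPR1 was thus last in GFP cells and eighth in CTRB1 cells, where ATF5 was last, and CEBPB stood above DDIT3 and ATF3 in CTRB1 cells.

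**Figure D4:**
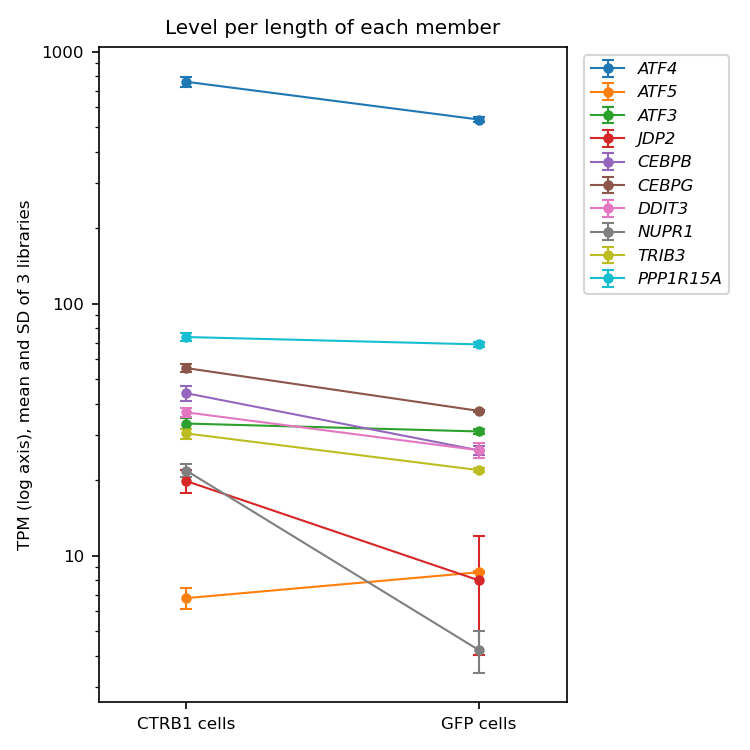
Mean deposited TPM of each regulator (vertical log axis) in CTRB1 cells (left) and GFP cells (right), with the SD of 3 libraries. ATF4 stands far above the rest in both groups, the NUPR1 line crosses those of JDP2 and ATF5, and the JDP2 bar is wide in GFP cells.

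Genes that ATF4 is known to switch on and that are no regulators themselves moved with the circuit. Of 32 listed, 30 passed the filter, and all 30 were called higher, with a median log2 fold change of 0.73. INHBE and ADM2 passed it only through the CTRB1 libraries. In GFP libraries their FPKM was 0.536 to 0.662 for INHBE and 0.688 to 0.710 for ADM2. These genes could thus enter only by being higher, yet they count among the 30 and in the median. With a mean FPKM of at least 5 required, 27 listed genes were called higher and 0 lower. The list was drawn up with earlier results of these data known and is not independent evidence of its direction. ASNS, asparagine synthetase, averaged 465 ± 4.38 CPM in CTRB1 cells and 195 ± 0.956 CPM in GFP cells (SD, n = 3 each; log2 fold change 1.25). DDIT4, an inhibitor of mTORC1, averaged 160 ± 2.67 CPM in CTRB1 cells and 56.7 ± 0.980 CPM in GFP cells (log2 fold change 1.497), SLC7A11, the cystine transporter, had a log2 fold change of 1.40, and ALDH1L2, of mitochondrial folate metabolism, one of 1.05. The 2 that did not pass the filter were FGF21, with 4 to 13 counts in CTRB1 libraries and 0 to 10 in GFP libraries, and GDF15, with 11 to 33 counts in CTRB1 libraries and 27 to 96 in GFP libraries. These are raw counts, not scaled for the greater depth of the GFP libraries, so they give no direction of change.

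Of 21 genes of the eIF2 kinases, their activators and inhibitors, eIF2, its exchange factor eIF2B and its phosphatase, 4 (19%) were higher, 3 (14.3%) were lower and 14 were not called, with a median log2 fold change of 0.01. These shares lie near the 18.6% higher and 18.9% lower of all genes tested. Without CTRB1 replicate 3, without GFP replicate 1, 2 or 3, after thinning and in both limma fits, 2 were lower. Without CTRB1 replicate 2, 5 were higher. IMPACT, an inhibitor of GCN2 activation, had the largest rise of the list (log2 fold change 0.28; edgeR adjusted p = 0.00111). None of the 4 kinase genes was called, with log2 fold changes from -0.01 for EIF2AK3 (PERK) to 0.01 for EIF2AK4 (GCN2) and edgeR adjusted p of 0.788 to 0.964. EIF2S1, which encodes eIF2alpha, fell by 0.29 on the log2 scale (edgeR adjusted p = 0.000252), while EIF2S2 and EIF2S3, for the other two eIF2 subunits, each rose by 0.17 (edgeR adjusted p = 0.000495 for EIF2S2 and 9.02e-05 for EIF2S3). EIF2B1, a regulatory subunit gene of eIF2B, fell by 0.19 (edgeR adjusted p = 0.00104). Of 9 genes of ribosome re-initiation and ATF4 turnover, 1 (11.1%) was higher, EIF2D (log2 fold change 0.17), and 1 (11.1%) was lower, DENR (log2 fold change -0.12). Both shares lie below those of all genes tested, and without CTRB1 replicate 2 there were 2 lower.

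Of 45 other bZIP genes listed, 33 passed the filter, of which 14 (42.4%) were higher and 7 (21.2%) lower, against 18.6% and 18.9% of all genes tested (median log2 fold change 0.08). Without GFP replicate 2 there were 9 higher and 4 lower, without GFP replicate 3 there were 9 higher, and with all libraries thinned to the smallest there were 7 higher. The genes with the smallest adjusted p were JUN, FOS and JUNB, the activator protein 1 genes, with log2 fold changes of -0.41, -0.57 and -0.52, and XBP1, of the unfolded protein response, with 0.37. JUN averaged 330 ± 11.5 CPM in CTRB1 cells and 438 ± 10.8 CPM in GFP cells (SD, n = 3 each).

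Among 6 measured paralogues and partners of TRIB3 and NUPR1, TRIB2, a TRIB3 paralogue, was higher (log2 fold change 0.27; edgeR adjusted p = 0.0107) and was the only gene of the list called. That is 16.7% of the list higher and 0% lower, against 18.6% and 18.9% of all genes tested. Without CTRB1 replicate 2 there were 3 higher, and without GFP replicate 3 or after thinning there were 0. NUPR2, the paralogue of NUPR1, had 0 counts in every library. Of 6 measured genes linked to CHOP in cell death, BBC3 (PUMA) was higher at 14.1 ± 0.397 CPM in CTRB1 cells and 9.20 ± 0.323 CPM in GFP cells (SD, n = 3 each; log2 fold change 0.62). ERO1A, an oxidase of the endoplasmic reticulum, was lower (log2 fold change -0.13), and the other 4 were not called. This list thus had 16.7% higher and 16.7% lower, near the shares of all genes tested. Without CTRB1 replicate 1 or CTRB1 replicate 2 there were 2 higher, and after thinning or in the limma fits there were 0 lower.

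Of 20 genes of endoplasmic reticulum chaperones and degradation, which ATF6 and XBP1 control, 5 (25%) were higher and 5 (25%) lower, against 18.6% and 18.9% of all genes tested, with a median log2 fold change of -0.01. In both limma fits 3 were higher. The genes with the smallest adjusted p were the degradation genes HERPUD1 (log2 fold change 0.34) and DERL3 (0.68), which rose, and the chaperone genes CALR (-0.22) and HSPA5 (-0.11), which fell. Both kinds of gene were called in both directions, since DERL1, of degradation, fell (-0.12) and PDIA4, of protein folding, rose (0.12). Of 9 mitochondrial chaperone and protease genes, the kind of gene that ATF5 is linked to under mitochondrial stress, 1 (11.1%) was higher and 3 (33.3%) lower. The shares over all genes tested were 18.6% and 18.9%, and the median of the list was -0.01. Those called were the protease gene LONP1 (log2 fold change 0.28), the chaperonin genes HSPE1 (-0.30) and HSPD1 (-0.21), and the import gene TIMM17A (-0.26).

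**Figure D5:**
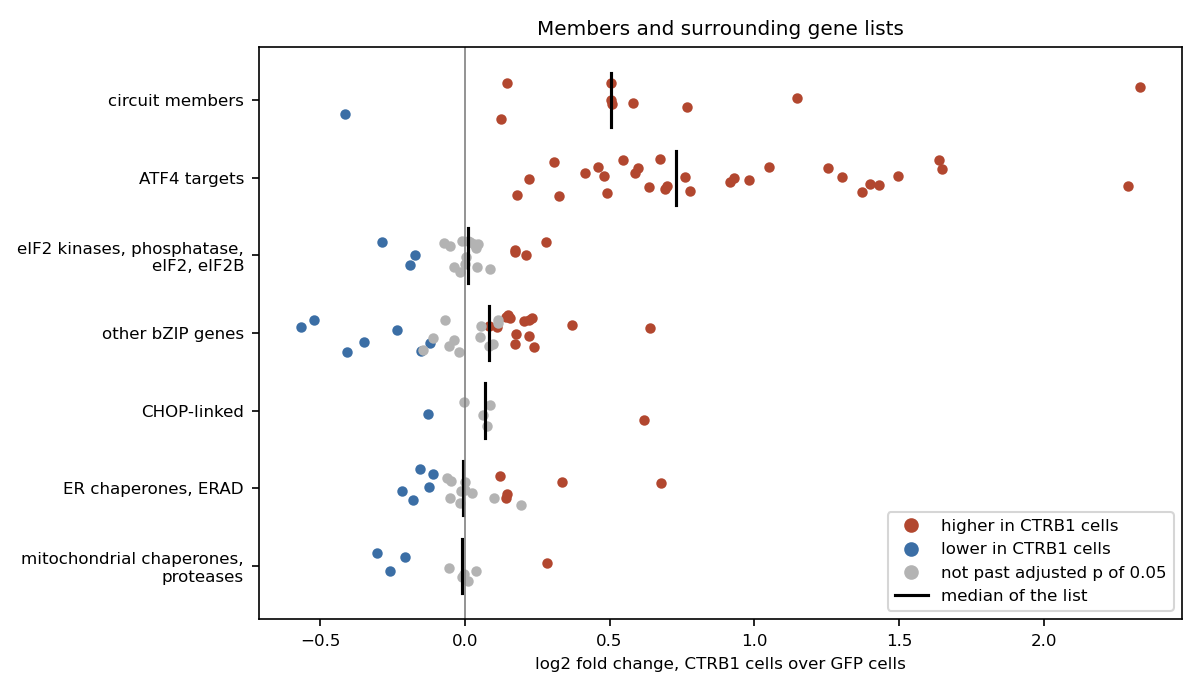
Log2 fold change of CTRB1 cells over GFP cells (horizontal axis) for the 10 regulators and for the measured genes of 6 lists, 1 point per gene, with the median of each list as a black bar. The regulators (median 0.51) and the ATF4 targets (median 0.73) lie to the right, and the medians of the remaining lists lie between -0.01 and 0.08.

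By Pearson correlation of log2 CPM over the 6 libraries, the genes most like ATF4 among 8811 compared were EME1 (r = 0.998), PRC1 (r = 0.997) and RPL12 (r = 0.997), and 524 genes exceeded 0.95. The genes most like ATF5 were CHCHD7 (r = 0.996), VPS37B (r = 0.994) and PRPF3 (r = 0.993), and 195 exceeded 0.95. The 6 points share 2 groups and their depths, so no p is given.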

How the data were processed

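One deposited table holds 6 libraries of total RNA. Per the file headers it holds raw counts, whole numbers without normalization. The deposited FPKM and TPM are the authors' length-scaled values. The authors' comparison gives a log2 fold change and p-values with adjusted p-values. HISAT2 2.2.1, HTSeq 0.6.1 and cutadapt 1.9.1 are listed, without roles, in the submitters' processing notes, with the mouse build GRCm38.p5, whereas the table's identifiers are human; the build of its coordinates and the use of strand are not given in the sources used here. GRCh38 was used only for RefSeq promoter windows and GENCODE v29.

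Counts were tested with edgeR 4.0.16 (R 4.3.3; TMM factors 0.996 to 1.004; both groups in 1 model without covariates) on genes with FPKM of at least 1 in at least 3 libraries. The SE is the log2 fold change divided by the square root of F. A floor of 3 counts was 0.0188 to 0.109 CPM, counting error only. Chi-square per degree of freedom was 5.72 to 8.17 within groups and 29.7 to 47.8 between them. The regulators and gene lists were chosen with earlier results of these data known. Genes named are the 10 regulators and the 3 most correlated with ATF4 and with ATF5. From each list up to 4 called genes are named by smallest adjusted p, plus the first called against the list's majority. Named after their values were seen were the eIF2 kinases, CEBPA, CEBPD, CEBPE, PPP1R15B, NUPR2, FGF21, GDF15, INHBE, ADM2, IMPACT, DERL1, PDIA4 and the marker genes. The edgeR, DESeq2 and limma fits were checked on counts simulated with known fold changes. Alternatives were DESeq2 1.42.0, its size factors, other filters, the replicate number as a block, thinned counts, leaving out each library, and limma 3.58.1 on log2(FPKM + 1) or log2(FPKM + 0.1).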

Additional observations from a re-analysis of the deposited data

How the results depend on the processing

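All 139 values of single regulators under 14 alternatives kept their direction, and 128 of them kept their side of the threshold; the 11 that did not were 7 for ATF3 and 4 for PPP1R15A. With a mean FPKM of at least 5 required, 0 regulators were lower, because ATF5 was no longer tested. Between 7 and 9 regulators were higher in every alternative. Over all genes, 2221 were higher, and 1250 with limma on log2(FPKM + 1) or on log2(FPKM + 0.1), for which the cause was not tested. NUPR1 had log2 fold changes of 1.91 to 2.44 and JDP2 of 1.05 to 1.39 over the alternatives. Same-numbered libraries did not deviate together (correlations -0.077, -0.078 and -0.134, with 0 libraries closest to their own number). That cannot show whether they had a culture or preparation in common, which the labels do not state. With the replicate block 9 regulators were higher and 1 lower, and 2119 genes were higher and 2201 lower. Precision is limited by 3 libraries a group and, for NUPR1 and ATF5, by counts as low as 115 and 175.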
